A study of Mus musculus with 4 samples.

Results

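The mitosis genes described here are 40 genes that act in the last part of the cell cycle: cyclins of the G2 phase and mitosis, mitotic kinases, and genes of the spindle, the kinetochore, cytokinesis and chromosome condensation. They were chosen by name, and all probe sets that the platform's probe-to-gene table pairs with one of these genes alone were taken. Of the 40 genes, 39 had such a probe set, 84 probe sets in all out of 45101 on the array, and the remaining gene, Ccnb1, was not analysed here. After the lowest 40% of probe sets by mean signal were left out, 75 of the 84 were tested, and each of the 39 genes kept at least 1. The 9 untested probe sets belonged to Aurka, Cenpa, Cenpe, Cenpf, Kif23, Nek2, Racgap1, Smc2 and Top2a. All 39 genes were therefore represented among the 13432 genes tested, each by its probe set with the highest mean.

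Signals came from 4 Affymetrix Mouse430_2 arrays of whole embryonic mouse kidneys at E14.5 (Theiler stage 22), 2 wild-type and 2 from null mutants of Wnt4 (allele Wnt4tm1Amc). Each wild-type array held a pool of 2 kidneys, with CD-1 given as the strain, and each mutant array a pool of 12 kidneys, with 129 given as the strain. Genotype, strain and pool size therefore cannot be told apart, although the protocol text of every array mentions CD-1 matings. The labels treat each pool as a biological replicate and name no litters; the p-values reflect pool-to-pool spread only, some of which may be technical. Sex was not known for any pool. The comparison asks which genes are expressed in the renal vesicle and the nephron parts that form from it, since Wnt4 mutants lack them.

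Mitosis is driven by cyclin-dependent kinase 1 bound to A- and B-type cyclins, is set in order by the Aurora and Polo kinases, and ends when the anaphase-promoting complex marks cyclins and securin for destruction. Transcripts of most of these genes rise in G2 and fall after division, so in a tissue their level depends on how many cells are cycling. In the embryonic kidney the cap mesenchyme, the ureteric bud tips, the early nephron epithelium and the stroma all hold dividing cells. In bulk RNA of whole kidneys, fewer cells of a type and less RNA per cell cannot be told apart.

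Transcription of mitotic genes is known to use a CCAAT box, bound by the factor NF-Y, and a cell cycle genes homology region, often with the letters TTTGAA, bound by complexes that repress the genes in resting cells and activate them in G2. The RefSeq promoter table (GRCm38.p6) held 34 of the 40 genes, and the 250 bases before the annotated start were searched on both strands for CCAAT and for TTTGAA. The CCAAT motif was present in 25 of the 34 (73.5%), against 35.7% of the 14453 genes of the table with a probe set of their own and 34.5% of all 27025 genes in it. At least 2 CCAAT matches were present in 14 of the 34 (41.2%, against 12.1% of the 14453 genes). A TTTGAA match was present in 11 (32.4%, against 11.9%), and both motifs in 10 (29.4%, against 4.38%). The windows below are those of the 6 genes called at some probe set that the table holds, and of Cdk1, which had the smallest p among the genes not called at any probe set. They are written 5′ to 3′ toward the start, and capitals mark every match to CCAAT or TTTGAA or to their reverse complements. Matches can overlap, as a pair on opposite strands does in Ube2c.
Ube2c, chr2:164769679-164769928, plus strand: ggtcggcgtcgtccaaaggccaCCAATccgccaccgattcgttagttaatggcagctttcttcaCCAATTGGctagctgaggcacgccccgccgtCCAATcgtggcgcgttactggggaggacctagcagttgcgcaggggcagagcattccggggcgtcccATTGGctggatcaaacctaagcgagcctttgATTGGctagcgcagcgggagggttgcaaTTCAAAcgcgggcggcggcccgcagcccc
Kif11, chr19:37376132-37376381, plus strand: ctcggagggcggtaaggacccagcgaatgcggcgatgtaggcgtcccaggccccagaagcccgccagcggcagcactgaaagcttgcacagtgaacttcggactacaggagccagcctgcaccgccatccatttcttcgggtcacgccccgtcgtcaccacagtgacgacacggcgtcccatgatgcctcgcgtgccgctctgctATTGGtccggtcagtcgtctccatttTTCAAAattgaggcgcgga
Cdk1, chr10:69352913-69353162, minus strand: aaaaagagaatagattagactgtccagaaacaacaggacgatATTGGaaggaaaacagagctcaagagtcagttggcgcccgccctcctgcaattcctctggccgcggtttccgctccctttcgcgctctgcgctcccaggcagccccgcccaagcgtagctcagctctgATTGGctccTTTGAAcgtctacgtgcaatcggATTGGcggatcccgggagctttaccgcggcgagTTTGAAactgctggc
Nek2, chr1:191821223-191821472, plus strand: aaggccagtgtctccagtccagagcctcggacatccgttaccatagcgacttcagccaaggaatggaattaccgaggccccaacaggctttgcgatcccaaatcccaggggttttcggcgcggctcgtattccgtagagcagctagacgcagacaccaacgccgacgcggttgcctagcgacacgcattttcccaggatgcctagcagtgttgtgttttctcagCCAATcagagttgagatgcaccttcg
Kif23, chr9:61946800-61947049, minus strand: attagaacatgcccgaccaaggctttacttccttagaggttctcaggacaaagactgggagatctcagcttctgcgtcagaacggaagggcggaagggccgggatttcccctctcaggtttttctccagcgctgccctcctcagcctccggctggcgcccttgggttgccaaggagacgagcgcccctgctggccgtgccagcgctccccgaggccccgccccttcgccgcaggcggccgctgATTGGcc
Bub1b, chr2:118597961-118598210, plus strand: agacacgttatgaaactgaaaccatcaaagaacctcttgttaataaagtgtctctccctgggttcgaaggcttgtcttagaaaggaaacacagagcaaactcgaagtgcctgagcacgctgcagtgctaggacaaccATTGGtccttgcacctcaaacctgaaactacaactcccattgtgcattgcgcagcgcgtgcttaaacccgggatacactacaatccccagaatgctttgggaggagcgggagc
Mad2l1, chr6:66534971-66535220, plus strand: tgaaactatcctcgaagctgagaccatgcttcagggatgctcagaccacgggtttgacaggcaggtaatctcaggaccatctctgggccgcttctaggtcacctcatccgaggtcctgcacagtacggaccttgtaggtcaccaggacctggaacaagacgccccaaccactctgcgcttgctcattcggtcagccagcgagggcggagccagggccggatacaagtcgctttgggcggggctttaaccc
Ube2c held 6 CCAAT matches and 1 TTTGAA match, and Cdk1 held 3 and 2. Kif11 held 1 of each, Nek2, Kif23 and Bub1b held 1 CCAAT match and no TTTGAA match, and Mad2l1 held neither in this window. Among the 33 genes that had both a window and a signal, the 24 with a CCAAT match had a median log2 difference of -0.11 and the 9 without one of -0.08. For TTTGAA the medians were -0.10 for the 11 with a match and -0.10 for the 22 without. These matches are letters in a window and are not measured binding sites.

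Array-wide values were as follows. Correlations of log2 signals over the 27022 tested probe sets ran from 0.974 to 0.980 within a genotype and from 0.943 to 0.947 between genotypes. Wnt4, the targeted gene, was lower at both of its tested probe sets, with signals of 1885 and 1770 in wild type and 406 and 272 in the mutant at the brighter one (log2 difference -2.40 ± 0.18, SE; limma adjusted p = 0.000196). For the transferrin receptor control, the ratio of 3' to 5' probe set signal, a measure of RNA or amplification quality, was 4.71 and 5.10 on the wild-type and 5.67 and 6.43 on the mutant arrays. The same ratio for Gapdh was 0.777 and 0.750 against 0.753 and 0.744. The part of these ratios in the results below was not tested.

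Most mitosis genes differed little between the kidneys. Of the 39 genes tested, 5 were lower in the mutant (12.8%) and 0 higher by limma with Benjamini-Hochberg adjustment over all tested probe sets at 0.05. Among all 13432 genes tested the same rule called 5.82% lower and 6.70% higher. The 5 were Ccna2, Nek2, Mad2l1, Ube2c and Kif23, between 1.30-fold and 1.74-fold lower. At an unadjusted p below 0.05, 11 genes were lower (13.8% of all genes) and 1, Cenpe, higher (14.6% of all genes). The log2 difference was negative in 29 of 39 genes, against 50.0% of all genes, and its median was -0.12, against 0.00027 over all genes. On both mutant arrays the signal lay below both wild-type arrays in 19 of the 39 genes (28.0% of all genes) and above them in 2, Cenpe and Ttk (29.1% of all genes). The median SE was 0.098 for the 39 genes and 0.149 for all genes, so smaller differences could be called among them.

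Sizes were small beside those of the array as a whole. The mitosis genes spanned log2 differences of -0.80 to 0.44, and the tested genes as a whole -5.23 to 3.23. A range widens with the number of genes, here 39 against 13432. At the brightest probe sets, Nek2 was the 1 gene (2.56%) whose estimate reached 1.5-fold in either direction, as 13% of all genes did. Averaged over the probe sets of each gene, Nek2 had a log2 difference of -0.20 (adjusted p = 0.414) and Ttk one of 0.79 (adjusted p = 0.0435). For 33 of the 39 genes (84.6%) the 95% interval of the difference lay inside 1.5-fold either way, which held for 47.8% of all genes. These shares also depend on precision, and the median SE was 0.098 for the 39 genes and 0.149 for all genes.

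**Figure D1:**
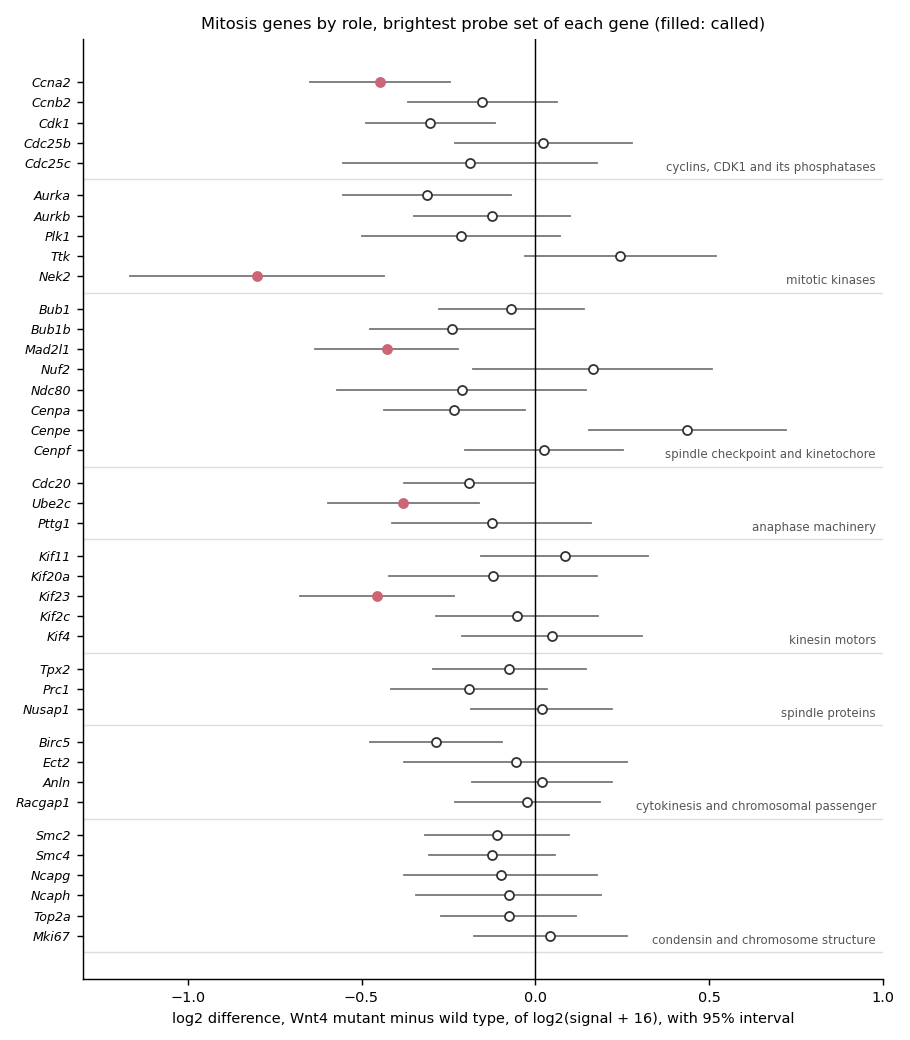
Log2 difference between Wnt4 mutant and wild-type kidneys (x axis, of log2(signal + 16)) for the 39 mitosis genes at their brightest probe set, grouped by role, with 95% intervals from the limma fit and filled points for genes called at an adjusted p of 0.05. The 5 filled points, Ccna2, Nek2, Mad2l1, Ube2c and Kif23, lie left of 0, and Cenpe at 0.44 lies farthest right.

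Among the cyclins, their kinase and its phosphatases, 1 of 5 genes was called lower. Ccna2 encodes cyclin A2, which acts in S phase and at mitotic entry. Its signal was 3726 and 3624 in wild-type and 2811 and 2576 in mutant kidneys, so the groups did not overlap. The difference was -0.45 ± 0.09 (SE), or 1.36-fold lower (adjusted p = 0.0156). A second Ccna2 probe set read 2910 and 3033 against 2680 and 2495 and did not pass (log2 difference -0.20, adjusted p = 0.199). Cdk1, the mitotic kinase itself, read 5798 and 5408 in wild type and 4579 and 4499 in the mutant. Its groups were apart as well, and its difference of -0.30 ± 0.08 had an adjusted p of 0.0506. Ccnb2, a B-type cyclin, had a difference of -0.15 (95% interval -0.37 to 0.06). Of the phosphatases that activate the kinase, Cdc25b had a difference of 0.02 (-0.23 to 0.28) and Cdc25c of -0.19 (-0.55 to 0.18).

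Of the 5 other mitotic kinases, Nek2 was called lower. NEK2 is a centrosomal kinase that loosens the link between the centrosomes before spindle assembly. At its brightest probe set the signal was 1082 and 968 in wild type and 673 and 501 in the mutant. Both mutant arrays lay below both wild-type arrays, and the level was 1.74-fold lower (log2 difference -0.80 ± 0.16, adjusted p = 0.0169). That probe set is an _s_at one, and Nek2 was not called without _x_at and _s_at probe sets. The further Nek2 probe sets had differences of 0.04 and 0.16 and did not pass. Aurka, whose kinase acts at the spindle poles, read 1972 and 2082 against 1754 and 1512 (-0.31 ± 0.11, adjusted p = 0.103). Aurkb, whose kinase belongs to the chromosomal passenger complex, had a difference of -0.12 (-0.35 to 0.10), and Plk1, the Polo kinase, of -0.21 (-0.50 to 0.07). Ttk, which encodes the checkpoint kinase MPS1, had the opposite sign, with 846 and 821 in wild type and 1060 and 925 in the mutant (0.24 ± 0.12, adjusted p = 0.244).

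Of 8 genes of the spindle checkpoint and the kinetochore, Mad2l1, with a single probe set, was called lower. MAD2 holds back anaphase until chromosomes are attached to the spindle. Its signal was 3358 and 3127 in wild type and 2323 and 2489 in the mutant, with no overlap, a 1.35-fold lower level (-0.43 ± 0.09, adjusted p = 0.0209). Bub1b, which encodes its checkpoint partner BUBR1, was called at 1 of its 3 probe sets, where the signal was 1945 and 2122 against 1618 and 1458 (-0.40 ± 0.10, adjusted p = 0.0429). At the brightest Bub1b probe set it was 2571 and 2208 against 1965 and 2066 (-0.24 ± 0.10, adjusted p = 0.189). The Bub1b call was lost with arrays centred on their medians, without a filter and without the intensity trend, among others. Cenpe encodes the kinetochore motor CENP-E and had the opposite sign: 959 and 1109 in wild type, 1304 and 1508 in the mutant. The groups did not overlap, and the difference of 0.44 ± 0.12 had an adjusted p of 0.0593. The centromeric histone gene Cenpa read 3883 and 3758 against 3419 and 3086 (-0.23 ± 0.09, adjusted p = 0.142). For Bub1, Ndc80, Nuf2 and Cenpf, of the checkpoint and the outer kinetochore, differences ran from -0.21 to 0.16 and none passed.

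Of the 3 genes of the anaphase machinery, Ube2c was called lower. UBE2C is the ubiquitin-conjugating enzyme that works with the anaphase-promoting complex. Its signal was 8328 and 7079 in wild type and 5876 and 5918 in the mutant, with no overlap and a wider spread in wild type. The level was 1.30-fold lower (-0.38 ± 0.09, adjusted p = 0.04), a call kept in 6 of 14 alternatives and lost under quantile normalization and without a filter, among others. Cdc20, which activates the complex, had a difference of -0.19 (-0.38 to -0.00307; adjusted p = 0.188), and a further Cdc20 probe set one of -0.27 (adjusted p = 0.0801). Pttg1, which encodes securin, had one of -0.13 (-0.41 to 0.16), and its groups overlapped.

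Of the 5 kinesin motors, Kif23 was called lower. The Kif23 protein bundles microtubules of the central spindle in cytokinesis. It read 1621 and 1577 in wild type and 1150 and 1173 in the mutant, which lay well apart (-0.46 ± 0.10, 1.37-fold lower, adjusted p = 0.022). A dimmer Kif23 probe set had a similar difference of -0.43 but a larger SE of 0.22, and did not pass. Racgap1, whose product binds the Kif23 protein in one complex, had a difference of -0.02 (-0.23 to 0.19). Kif11, the motor that pushes the spindle poles apart, was called at 1 of 3 probe sets, with 696 and 727 against 500 and 446 (-0.58 ± 0.14, 1.49-fold lower, adjusted p = 0.0328). Its brightest probe set read 1115 and 1179 against 1258 and 1175, a difference of 0.08. The Kif11 call was lost with arrays centred on their medians, without a filter and without the intensity trend, among others. At their brightest probe sets Kif20a, Kif2c and Kif4 lay between -0.12 and 0.05, and their groups overlapped. Further Kif2c probe sets had differences of -0.54, -0.40 and -0.21 without overlap, and none passed (adjusted p from 0.136 to 0.317). Averaged over its probe sets, Kif2c had a difference of -0.30 (adjusted p = 0.0975).

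The remaining roles held no called gene. Birc5, which encodes survivin of the chromosomal passenger complex, read 5553 and 5130 in wild type and 4460 and 4295 in the mutant (-0.29 ± 0.08, adjusted p = 0.0663). Ect2 and Anln, of the contractile ring, had differences of -0.06 and 0.02 at their brightest probe sets. Among spindle proteins, Prc1 had a difference of -0.19, Tpx2 of -0.07 and Nusap1 of 0.02 at their brightest ones, with adjusted p from 0.267 to 0.928. Further probe sets gave -0.44 for Anln, -0.30 for Prc1 and -0.54 for Nusap1, and -0.25, -0.05 and -0.04 for Tpx2. None of these passed (adjusted p from 0.134 to 0.879). The condensin genes Smc2, Smc4, Ncapg and Ncaph had differences from -0.12 to -0.08 at their brightest probe sets. Further probe sets lay as low as -0.58 for Smc2, -0.46 for Smc4 and -0.45 for Ncapg, and none passed. Top2a, the topoisomerase that untangles sister chromatids, read 7040 and 6401 in wild type and 6533 and 6200 in the mutant at its brightest probe set (-0.08, interval -0.27 to 0.12). Mki67, whose protein Ki-67 is the common marker of dividing cells, read 4415 and 4234 against 4126 and 4813 (0.04, interval -0.18 to 0.26). For both, the groups overlapped, and the intervals leave out a change of 1.5-fold in either direction.

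**Figure D2:**
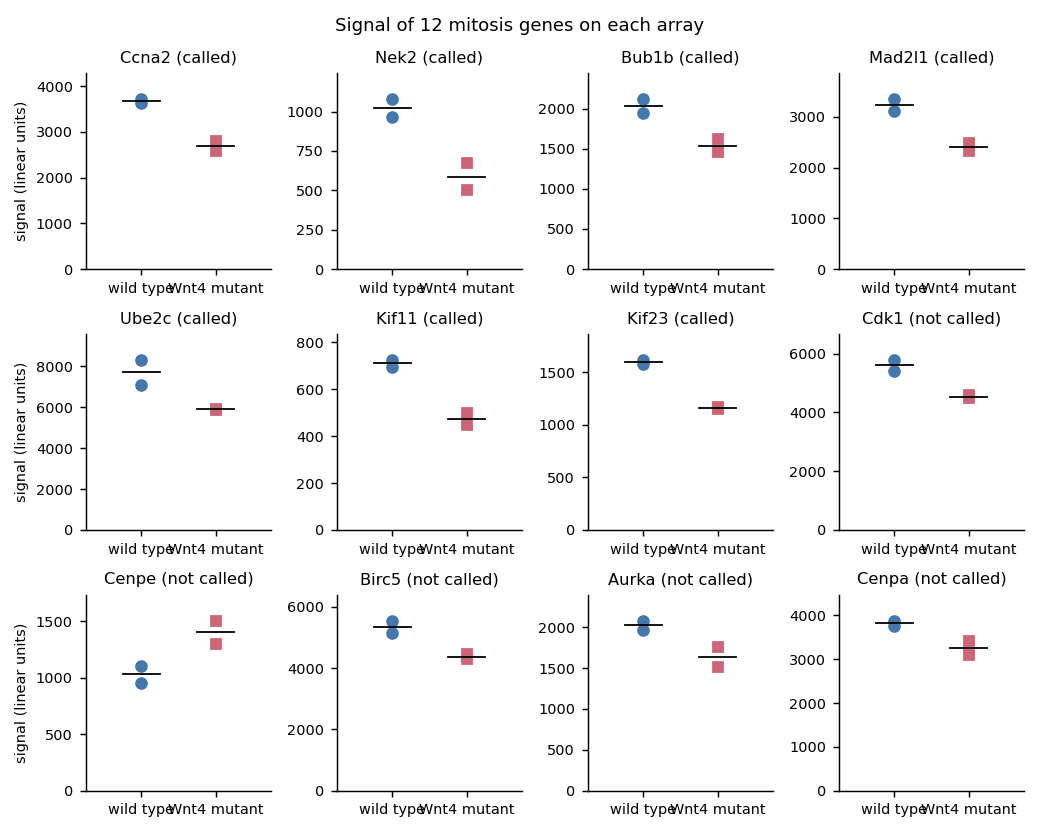
Deposited signal (y axis, linear, from 0) on each wild-type (circles) and Wnt4 mutant (squares) array for 12 mitosis genes, with the mean of each group as a bar. Kif11 and Bub1b are shown at the probe set that was called and the others at their brightest one. The genes were picked by being called or by smallest p, which favours groups that do not overlap, as in all 12 panels. Over all genes, both mutant arrays lay below both wild-type arrays in 28.0% and above them in 29.1%. Cenpe is the 1 gene of the 12 that is higher in the mutant.

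Probe sets of the same gene did not always give the same value. Of the 39 genes, 24 had more than 1 tested probe set, 36 further ones in all. Over all 75 member probe sets, 7 were lower (9.33%, against 5.39% of all tested probe sets) and 0 higher (5.41% of all), and 55 had a negative difference. The other 2 Nek2 probe sets read 468 and 405 against 406 and 493 (0.04) and 122 and 125 against 123 and 160 (0.16), with overlapping groups at both. For Ttk, a dim further probe set read 37.0 and 105 in wild type and 154.5 and 224 in the mutant, a log2 difference of 1.34 ± 0.43 (adjusted p = 0.0897). To test such disagreement, the difference between each further probe set and the brightest one of its gene was fitted over all 9974 such pairs, a test chosen after the values were seen. None of the 36 member pairs passed at an adjusted p of 0.05, against 0.170% of all pairs. At an unadjusted p below 0.05 there were 6 of 36, against 14.8% of all pairs. The largest departures among the 6 were in Nek2 (0.96, adjusted p = 0.266, and 0.84, adjusted p = 0.282) and Kif11 (-0.66, adjusted p = 0.213). The test was fitted without the intensity trend and passed few pairs on the whole array. It therefore cannot decide whether the probe sets of a gene differ.

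**Figure D3:**
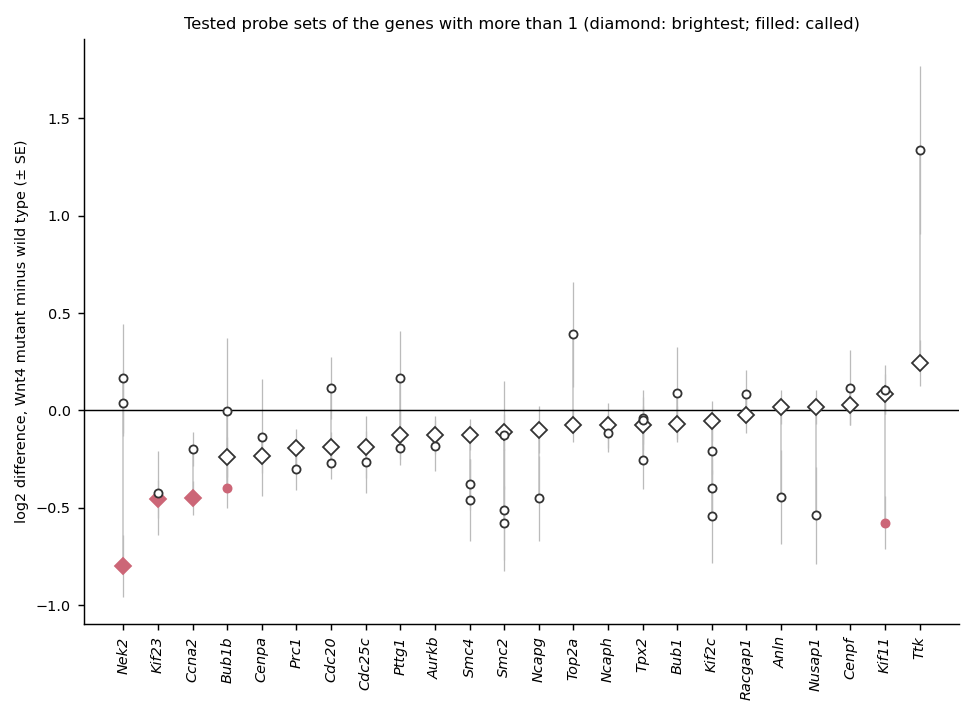
Log2 difference (y axis, Wnt4 mutant minus wild type, ± SE) of every tested probe set of the 24 genes with more than 1, ordered by the value of the brightest probe set (diamonds; further probe sets are circles, and filled symbols are called). The further probe sets of Nek2 sit near 0 while its brightest is at -0.80, and Kif11 has 1 filled circle at -0.58 below a pair of open symbols near 0.1.

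The second mutant array carried the lower values more often than the first. Against the mean of the wild-type arrays, the median over the 39 genes was -0.077 on mutant array 1 and -0.135 on mutant array 2, where all genes had medians of -0.010 and 0.025. Of the 39 genes, 21 had their lowest signal on mutant array 2, 9 on mutant array 1, 4 on wild-type array 1 and 5 on wild-type array 2. The highest signal was on wild-type array 1 in 20 genes. The same counts over all genes were not taken. When mutant array 2 was left out, 0 of the 39 genes were called by limma in either direction (6 lower and 0 higher at an unadjusted p below 0.05), and the 7 called probe sets had adjusted p-values from 0.0752 to 0.262. When mutant array 1 was left out, 2 genes were called lower, Ccna2 and Nek2. Without wild-type array 2, 9 genes were called lower and Cenpe higher, and without wild-type array 1, 4 were called lower and Nuf2 higher (adjusted p = 0.0499). With a variance that did not depend on intensity, 0 genes were called in either direction (5 lower and 1 higher at an unadjusted p below 0.05), and with arrays centred on their medians 1 was called lower, Nek2. The sign of each of the 7 called differences was negative in each of these fits. Their groups did not overlap, so omitting an array could not turn the sign, and the trend does not enter the estimate. With probe sets averaged per gene, 5 genes were called lower, of which 3 were shared (Ccna2, Mad2l1 and Ube2c), with Birc5 and Cdk1 in place of Nek2 and Kif23 (adjusted p = 0.055 for Kif23). Cenpe (adjusted p = 0.0461) and Ttk were called higher there. The median over the 39 genes stayed between -0.135 and -0.077 when each array was omitted in turn, against -0.015 to 0.019 over all genes. The number of probe sets called over the whole array also changed with the array omitted. The changes in count were therefore not shown to be particular to the mitosis genes.

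**Figure D4:**
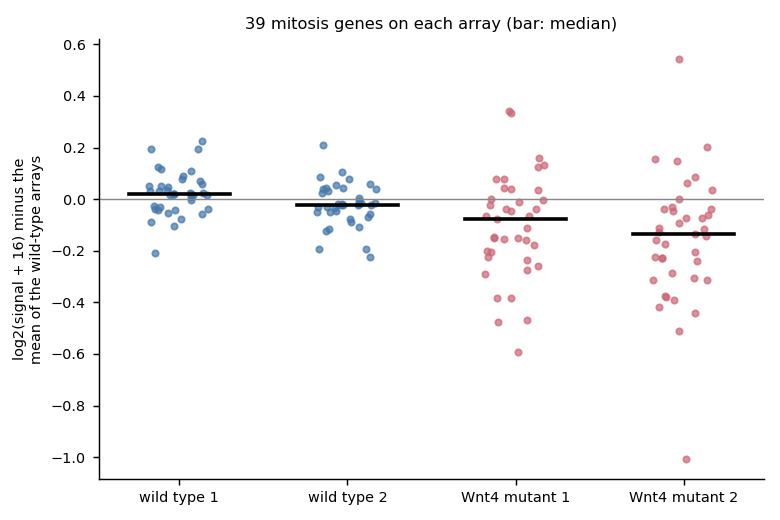
Deviation of each of the 39 mitosis genes (points) from the mean of the 2 wild-type arrays on the log2(signal + 16) scale, by array, with the median as a bar. The wild-type medians mirror each other at 0.02 and -0.02 by construction, and the mutant medians are -0.077 and -0.135.

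Other genes of mitosis were listed by role. Over 6 lists of regulators, kinetochore, anaphase-promoting complex, cohesin and condensin, spindle and mitotic entry genes, 139 further genes were tested. Of these, 4 were lower (2.88%, against 5.82% of all genes) and 3 higher (6.70% of all genes), with a median of -0.08. At an unadjusted p below 0.05 by limma, 19 were lower (13.8% of all genes) and 16 higher (14.6% of all genes). Of 34 other kinetochore and checkpoint genes, 2 were lower, Cenpk (1.60-fold, adjusted p = 0.00759) and Mis18a (1.59-fold, adjusted p = 0.0079), both of the centromere, and the list median was -0.11. Of 15 other regulators of G2 and mitotic entry, Vrk1 (1.42-fold) and Wee1 (1.36-fold), both kinases, were lower, with a median of -0.20. Of 34 other spindle and cytokinesis genes, Numa1, of the spindle poles, was higher (1.45-fold) and 0 were lower, though 5 were lower and 2 higher at an unadjusted p below 0.05. Of 17 genes of the anaphase-promoting complex and its regulators, 0 passed by limma in either direction. There 6 were higher (14.6% of all genes) and 0 lower (13.8% of all genes) at an unadjusted p below 0.05, and the median was 0.19. Of 22 transcriptional regulators of mitotic genes, 0 passed in either direction, with 3 lower and 2 higher at an unadjusted p below 0.05 and a median of -0.13. Foxm1 and Mybl2, activators of mitotic genes in G2, had differences of -0.24 (924 and 687 against 639 and 703) and -0.23 (440 and 388 against 313 and 394). Without mutant array 2 the calls of Vrk1 and Wee1 were lost, and without mutant array 1 those of Vrk1, Wee1, Mis18a and Numa1. Without wild-type array 1 the call of Wee1 was lost. Without wild-type array 2 the counts over the 139 genes were 11 lower and 9 higher, without mutant array 1 they were 2 lower and 1 higher, and without mutant array 2, 2 and 2. They were 2 and 2 with arrays centred on their medians, and 0 lower and 1 higher without the intensity trend, where the calls of all 4 lower genes and of Numa1 were lost. With probe sets averaged per gene, the calls of Mis18a (adjusted p = 0.075), Vrk1 (0.407), Wee1 (0.349) and Numa1 (0.223) were lost.

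Of the genes of earlier cell cycle phases, those of S phase lay mostly lower, and the D cyclins and their regulators lay on both sides. Of 26 S phase genes, 4 were called lower, Rrm2, Gmnn, Tk1 and Pcna (15.4%, against 5.82% of all genes), and 0 higher (6.70% of all genes). The median was -0.16, and 24 differences were negative (50.0% of all genes). Both mutant arrays lay below both wild-type arrays in 18 genes (28.0% of all genes) and above them in 0 (29.1% of all genes). At an unadjusted p below 0.05, 10 were lower (13.8% of all genes) and 0 higher (14.6% of all genes). Gmnn encodes geminin, which blocks a second round of replication, and it read 2412 and 2682 in wild type and 1942 and 1884 in the mutant (1.33-fold lower, adjusted p = 0.0305). Tk1, a thymidine kinase, was 1.28-fold lower. The S phase count was 0 without mutant array 2, 1 without mutant array 1 and 7 without wild-type array 2. It was also 0 by limma with arrays centred on their medians (3 at an unadjusted p below 0.05) and without the intensity trend (5 at an unadjusted p below 0.05), and 1 without a filter. Of 11 D cyclins, their kinases and inhibitors, Ccnd1 was lower (1.39-fold, adjusted p = 0.0108). Cyclin D2 went up: Ccnd2 read 7599 and 7636 in wild type and 10471 and 11602 in the mutant (1.45-fold higher, adjusted p = 0.0058). Cdkn1a, the inhibitor p21, was higher by 1.70-fold (adjusted p = 0.00444). Averaged over probe sets, the differences were -0.95 for Ccnd1 and 0.58 for Ccnd2 (limma adjusted p = 0.00408 and 0.0309). The calls of Ccnd1 and Ccnd2 were lost without mutant array 2 (adjusted p = 0.0927 and 0.0588). The call of Ccnd1 was also lost with arrays centred on their medians (0.0658), and those of Ccnd1, Ccnd2 and Cdkn1a without the intensity trend (0.134, 0.109 and 0.0565).

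**Figure D5:**
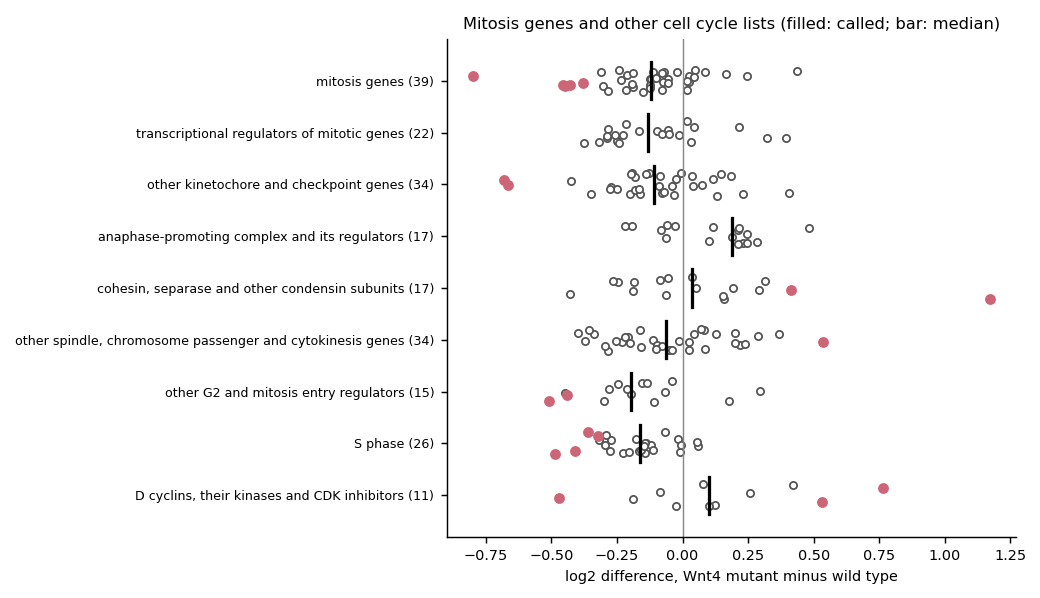
Log2 difference (x axis, Wnt4 mutant minus wild type) of the 39 mitosis genes and of the genes of 8 other cell cycle lists, with the number of genes in brackets, filled points for called genes and the median as a bar. The median is -0.12 for the mitosis genes, -0.16 for S phase and 0.19 for the anaphase-promoting complex, and the far right point is Ncapd2.

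Cell type markers also differed between the kidneys, on the same arrays. All 9 tested renal vesicle markers were lower, and their summed signal was 12640 and 12867 in wild type and 3570 and 3419 in the mutant. All 10 proximal tubule markers were lower (9639 and 10199 against 908 and 972), as were 5 of 6 loop and distal tubule markers (5918 and 7356 against 1333 and 1409) and 5 of 8 podocyte markers (13860 and 13288 against 9995 and 9183). Of 12 stroma markers, 9 were higher and 0 lower (48892 and 48889 against 72863 and 72578). Of 10 cap mesenchyme markers, 3 were lower and 2 higher (20469 and 20017 against 17088 and 16814), and of 11 ureteric bud markers 3 were lower and 2 higher (21800 and 20839 against 19538 and 18586). Of 10 endothelial markers 4 were lower and 0 higher (11963 and 11386 against 8497 and 8709). Of 5 erythroid markers 0 were lower and 2 higher, the globin genes Hba-x and Hbb-y (summed signal of the 5, 10495 and 10228 against 22416 and 23384). Most of that sum was Hbb-y, with 7908 and 7891 against 16223 and 17162. Alas2 and Slc4a1 had positive differences and did not pass, and Epor was 1.54-fold lower (limma adjusted p = 0.0662). Of 8 skeletal muscle markers 0 were lower and 7 higher (2153 and 1212 against 8070 and 7731). Of 8 macrophage markers 0 passed by limma, with 1 lower and 0 higher at an unadjusted p below 0.05 (3813 and 3615 against 3817 and 4009). Of 5 smooth muscle markers 2 were lower and 1 higher (10431 and 10989 against 10474 and 9383). Of 4 adrenal markers 2 were lower and 0 higher (1860 and 1770 against 1371 and 1259), and of 3 neural and Schwann cell markers 1 was lower and 0 higher (710 and 513 against 586 and 534). Among the listed markers not tested were Klf1 of erythroid cells and Nr5a1 of the adrenal. Over the same arrays the summed signal of the 39 mitosis genes was 110819 and 105697 in wild type and 97897 and 96252 in the mutant, a ratio of 0.897. The part of these markers' cell types in the values of the mitosis genes was not tested.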

How the data were processed

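Signals were analysed from 4 Affymetrix Mouse430_2 arrays. The deposited values are signal intensity in linear units, 1 for each probe set. GCOS is named in the submitters' processing notes, and the summary algorithm is not given in the sources used here. With the lowest and highest 2% trimmed, the mean of the deposited values was 499.9 on every array, so no further scaling was applied. Depth has no meaning here, and the number of arrays limits the precision: 2 against 2 cannot give an exact two-sided p below 0.333.

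Values were transformed to log2(signal + 16), which understates the change of dim genes, and folds are on that scale. The 64 control probe sets and the lowest 40% by mean were left out, leaving 27022 with a mean signal of at least 94.2. Each was fitted with limma 3.58.1 in R 4.3.3 (lmFit, eBayes with intensity trend), two-sided, with Benjamini-Hochberg adjustment over all tested probe sets and called at 0.05. Intervals are 95%. The fit was tested on simulated data. Of 34958 probe sets with 1 gene in GEO's platform annotation, 34754 matched RefSeq by identifier.

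The members and lists were chosen with earlier results of these data known. Genes described in full were those called at any probe set and then those of smallest p until there were 12; in the other lists up to 3 called genes of smallest p, with exceptions (Pcna, Foxm1, Mybl2, Ncapg2, Ncapd3 and Ncaph2) chosen after values were seen. Alternatives were quantile normalization, median centring, a pseudocount of 1 or 64, no filter on low signals or one at 60%, no trend, a robust fit, no _x_at or _s_at probe sets, a replicate block, the mean over probe sets, and leaving out each array. The motif search, the 1.5-fold bound and the test between probe sets were added after the data were seen.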

Additional observations from a re-analysis of the deposited data

How the results depend on the processing

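The direction of the 7 called differences was negative under every alternative that gave a value. This was largely fixed in advance. The filters, the trend, the robust fit, the replicate block and the removal of other probe sets leave an estimate as it is. At all 7, both mutant arrays lay below both wild-type arrays, so omitting an array could not turn the sign. Over all 39 genes and 7 called probe sets, 549 of 566 values under the 14 alternatives fitted per probe set kept their sign. The other 17 were at probe sets other than the 7. The 566 include values from alternatives that cannot change the estimate. Averaging probe sets per gene turned the sign of 6 of 39 genes, Anln, Bub1, Kif11, Nusap1, Racgap1 and Top2a. The main count of called probe sets was 2920. It was 858 without the intensity trend and between 1572 and 4008 with an array omitted. The count of member genes called lower was 5, and it was 1 with arrays centred on their medians, 0 without the intensity trend (5 at an unadjusted p below 0.05 in limma) and 0 to 9 with an array omitted. With probe sets averaged per gene it was also 5, of which 3 were shared. The count called higher was 0, and it was 1 with the filter on the lowest 60% (Cenpe), 1 with the replicate block (Cenpe), 2 with probe sets averaged per gene (Cenpe and Ttk) and 0 to 1 with an array omitted. The count of member probe sets called was 7, and it was 2 with centred arrays, 4 without a filter, 0 without the trend and 1 to 11 with an array omitted; the 1 without mutant array 2 was a further Smc4 probe set. The median over member genes was -0.121, moved to -0.185 with probe sets averaged per gene, and lay between -0.135 and -0.077 with an array omitted. The cause of these changes was not tested.

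In the fit with the replicate block, 4 genes were called lower, since Ube2c (adjusted p = 0.0514) and the called Bub1b probe set (0.0506) were lost, and Cenpe was called higher (0.0354). The numbers 1 and 2 are not stated to pair the samples, and the deviations of same-numbered arrays had a correlation of -0.02. Cdk1 passed with a pseudocount of 64 (adjusted p = 0.0489), with the filter on the lowest 60% (0.0409), with a robust fit (0.0455) and without _x_at and _s_at probe sets (0.0441).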

Other observations

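Among the condensin genes outside the 40, Ncapd2 was higher in the mutant. Ncapd2 encodes a non-SMC subunit of condensin I, the complex that compacts mitotic chromosomes. Its signal was 1618 and 1567 in wild-type and 3467 and 3752 in mutant kidneys, 2.25-fold higher with a log2 difference of 1.17 ± 0.09 (SE; limma adjusted p = 0.000221), and the adjusted p stayed between 1.05e-06 and 0.0278 over 14 alternatives fitted per probe set. A dimmer probe set for Ncapd2 read 237 and 147 in wild type and 113 and 419 in the mutant and did not pass (adjusted p = 0.832), and averaged over both probe sets the difference was 0.70 and the call was lost (adjusted p = 0.141). The other subunits of that complex, Smc2, Smc4, Ncapg and Ncaph, had differences from -0.12 to -0.08 at their brightest probe sets. Averaged over probe sets, Smc2 had a difference of -0.33, Smc4 of -0.32, Ncapg of -0.28 and Ncaph of -0.095, with adjusted p from 0.118 to 0.596. Of the condensin II subunits, Ncapg2 had a difference of -0.43 (adjusted p = 0.108) and the brightest Ncapd3 probe set one of -0.19 (adjusted p = 0.361), while the 4 Ncaph2 probe sets ran from -0.25 to 0.25, with adjusted p from 0.195 to 0.483. Wapl, which releases cohesin from chromosomes, was higher by 1.33-fold (adjusted p = 0.036), a call kept in 9 of 14 alternatives and lost, among others, without mutant array 1 and without mutant array 2.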
